A study of Homo sapiens with 12 samples.

Results

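Complex III, complex IV and ATP synthase carry out the last steps of mitochondrial respiration, and the 38 nuclear genes described here encode most of their subunits. The genes were taken by symbol from a table of 17786 Ensembl gene identifiers. All 38 were found, and all 38 were among the 13598 genes that passed the filter on low counts. Of the 38, 9 encode complex III subunits, 11 encode complex IV subunits and 16 encode ATP synthase subunits or its inhibitor. The remaining 2 are CYCS, which encodes the electron carrier cytochrome c, and PET100, which encodes a complex IV assembly factor and not a subunit.

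Messenger RNA was sequenced from K562 cells, an established human cell line of chronic myelogenous leukaemia. Cells received 2 mM AKB (alpha-ketobutyrate) for 24 h, 2 mM pyruvate for 24 h, or neither (untreated). Each group had 4 libraries. The labels name no genetic change, and all groups were grown in RPMI-1640 with serum and glutamine. Whether replicate libraries come from separate cultures is not stated, so each p-value measures only the spread between these libraries, which may be technical.

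Complex III passes electrons from ubiquinol to cytochrome c. Complex IV passes them on to oxygen. Both pump protons across the inner mitochondrial membrane, and ATP synthase uses the returning protons to make ATP. Each machine combines nuclear-encoded subunits with a few encoded by mitochondrial DNA. AKB and pyruvate are 2-oxo acids that can take up electrons from NADH, and AKB has a methylene group more than pyruvate. The design asks how adding such electron acceptors alters transcript levels.

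Library totals ran from 15353200 to 21301073 counts. The 38 genes held 0.811% to 0.867% of the counts in AKB libraries, 0.843% to 0.987% in pyruvate libraries and 0.837% to 0.879% in untreated libraries. Levels are given below as CPM, each gene's counts per library scaled by its TMM-adjusted size. In bulk RNA, fewer cells that express a gene and less RNA per cell cannot be told apart. Pyruvate replicates 3 and 4 stood apart from the other 10 libraries. In them log2 CPM climbed by 0.327 and 0.346 for each 10 percentage points of transcript GC content (each library set against the average of the 12). The same slope was −0.155 to 0.0172 in the remaining 10. Results on pyruvate are therefore given with and without these 2 libraries. The K562 markers GATA1, TAL1, HBG1, HBG2, HBE1 and TFRC were all detected, while ALB and CD3E, markers of liver and T cells, had at most 5 and 2 counts in any library. COL1A1, a marker of fibroblasts, averaged 2.05 CPM in AKB libraries, 1.19 CPM in pyruvate libraries and 1.08 CPM in untreated libraries. Of these K562 markers, HBE1 was higher with AKB than in untreated cells (log2 0.42, adjusted p = 0.00146), while HBG1 and HBG2 were lower with pyruvate (log2 −0.31 and −0.34, adjusted p = 0.0489 and 0.0206, edgeR). Without pyruvate replicates 3 and 4, HBG1 and HBG2 were not called (log2 −0.25 and −0.27, adjusted p = 0.204 and 0.0846, edgeR). TAL1 was then called lower with pyruvate (log2 −0.24, adjusted p = 0.0263, edgeR). The part of these markers in the results below was not tested.

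With AKB, none of the 38 genes was called higher or lower than in untreated cells. A gene is called here when its adjusted p is below 0.05 by edgeR's quasi-likelihood test with Benjamini-Hochberg adjustment over all genes tested. Over all genes tested, 1.37% were called higher and 0.603% lower with AKB. With pyruvate, 3 of the 38 rose, 1 linked to each machine: UQCR10 of complex III, PET100 for complex IV and ATP5MF of ATP synthase. None fell. Over all genes tested, 1.02% were called higher and 0.927% lower with pyruvate. The same 3 genes were lower with AKB than with pyruvate. None of these calls held without pyruvate replicates 3 and 4. The 3 calls against untreated cells were also lost without any 1 of untreated replicates 1 to 3. The call of PET100 against untreated cells also did not hold when its counts were pooled with those of an overlapping gene.

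**Figure D1:**
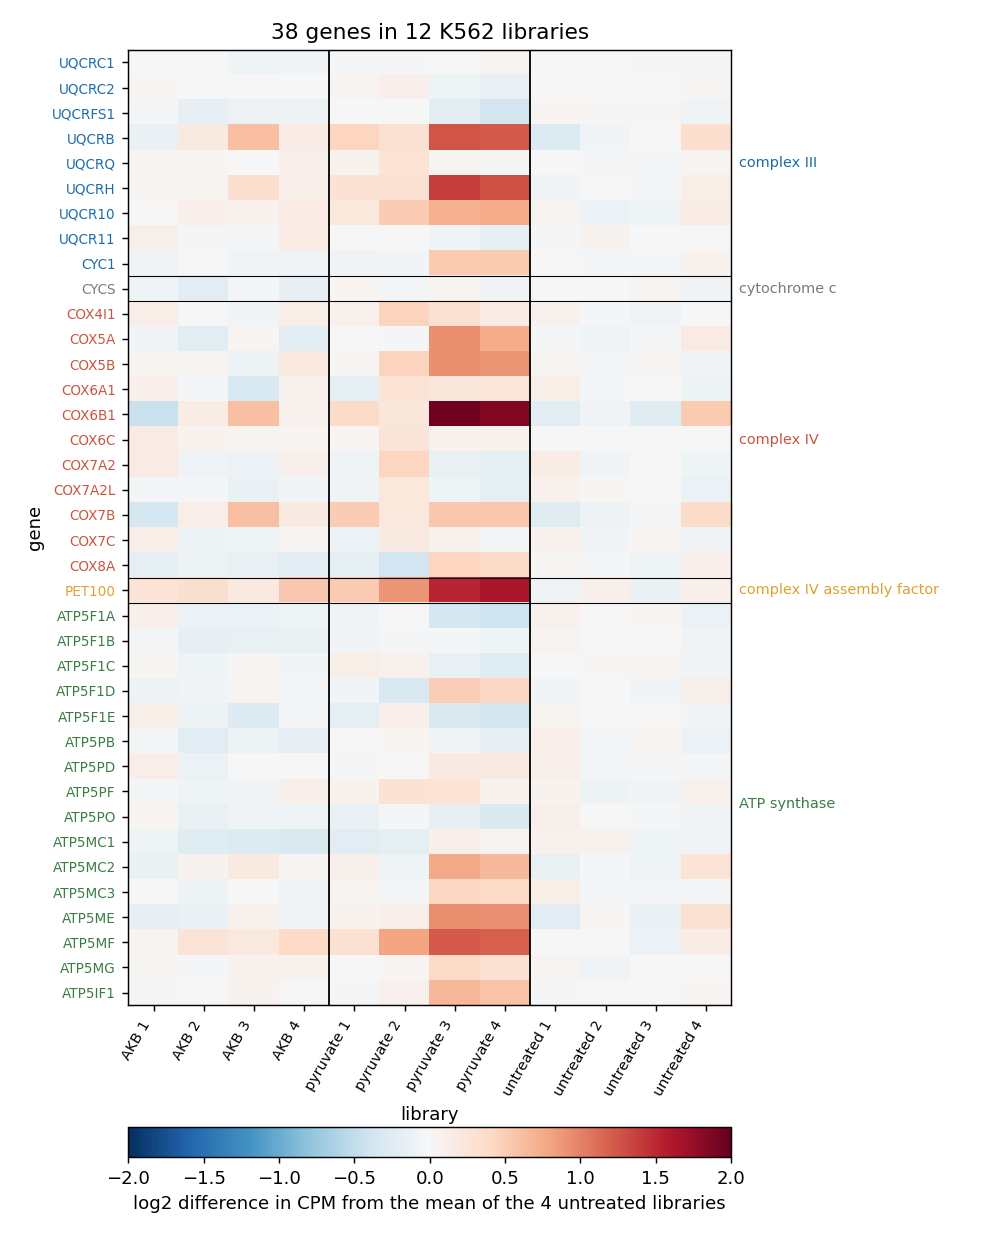
Each row is 1 of the 38 genes, each column 1 library, and the colour is the log2 difference in CPM from the mean of the 4 untreated libraries. The strongest colours stand in pyruvate replicates 3 and 4, where COX6B1 averaged 1.9 and PET100 1.58 above the untreated mean, while UQCRC1 lies between −0.0871 and 0.052 in all 12 libraries.

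In complex III, UQCR10, the gene of a small supernumerary subunit (ENSG00000184076, chr22:29767369-29770413 on the plus strand of GRCh38 in GENCODE 29), had 46.9, 57.3, 66.3 and 67.2 CPM in pyruvate replicates 1 to 4. It had 41.7, 37.3, 38 and 44.6 CPM in untreated replicates 1 to 4, so all 4 pyruvate libraries lay above all untreated ones. The means were 59.4 ± 9.46 and 40.4 ± 3.38 CPM (SD, n = 4 each). UQCR10 was 1.47-fold higher with pyruvate (log2 0.56 ± 0.11 SE, adjusted p = 0.0294, edgeR). In AKB libraries it had 40.4, 43.2, 42.8 and 45.1 CPM, within or close to the untreated range, and its log2 fold change was 0.09 (95% interval −0.148 to 0.319). Without pyruvate replicates 3 and 4, the fold change with pyruvate was log2 0.37 and the adjusted p 0.101.

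The promoters of UQCR10 and PET100 are shown because both genes were called, and that of COX5B because it holds both motifs searched, as do COX6A1 and ATP5PF. ATP5MF, also called, had no matched promoter. The sequences are from RefSeq's promoter table on GRCh38.p14 and stop before the start of the GENCODE 29 gene. Capitals mark CCGGAAG, a core bound by ETS factors such as GABP (also called NRF-2), or GCGCATG, part of the site of NRF-1, on either strand. GABP and NRF-1 are textbook regulators of respiratory chain genes.
UQCR10, chr22:29767119-29767368, plus strand: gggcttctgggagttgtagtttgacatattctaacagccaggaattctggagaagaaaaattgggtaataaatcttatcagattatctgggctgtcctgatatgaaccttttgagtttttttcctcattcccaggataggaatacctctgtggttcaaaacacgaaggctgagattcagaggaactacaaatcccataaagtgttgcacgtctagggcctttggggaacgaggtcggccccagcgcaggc
PET100, chr19:7629543-7629736, plus strand: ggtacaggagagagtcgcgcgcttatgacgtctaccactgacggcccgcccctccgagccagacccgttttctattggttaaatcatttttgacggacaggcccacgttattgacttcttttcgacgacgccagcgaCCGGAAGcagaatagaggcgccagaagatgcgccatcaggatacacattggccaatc
COX5B, chr2:97645812-97646039, plus strand: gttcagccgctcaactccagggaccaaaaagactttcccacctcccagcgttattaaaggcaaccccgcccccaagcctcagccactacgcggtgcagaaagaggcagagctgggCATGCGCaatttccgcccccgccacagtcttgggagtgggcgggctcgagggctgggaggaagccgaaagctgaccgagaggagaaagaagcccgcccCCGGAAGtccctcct

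In the 250 bases before the RefSeq start, CCGGAAG occurred on either strand in 11 of the 31 members with a matched promoter (35.5%) and in 10.2% of all 27305 genes with one. The 27305 are not limited to the genes tested here, so the shares come from unlike sets of genes. The 11 were UQCRQ, UQCRH, UQCR11, COX5B, COX6A1, COX6B1, COX8A, PET100, ATP5F1A, ATP5PD and ATP5PF. GCGCATG occurred in 7 members (22.6%) and in 4.59% of all genes. Those 7 were CYCS, COX5B, COX6A1, ATP5F1C, ATP5MC2, ATP5ME and ATP5PF. The 2 matches in the COX5B promoter lie apart, and a match is a description of the sequence, not a binding site. Genes with and without CCGGAAG both include members that were high in pyruvate replicates 3 and 4 (COX6B1 and UQCRH with it, ATP5ME without it) and members that were not (ATP5F1A with it, UQCRC2 without it).

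The other supernumerary subunits of complex III varied among themselves. UQCRH, the hinge protein that helps dock cytochrome c1 to cytochrome c, had 242.8, 245.6, 520.8 and 485.4 CPM in pyruvate replicates 1 to 4, against 190.8, 197.6, 193.3 and 216.7 CPM in untreated replicates 1 to 4. The groups did not overlap, but replicates 3 and 4 were far above replicates 1 and 2. Its log2 fold change of 0.91 missed the threshold (adjusted p = 0.0553, edgeR). UQCRB, a subunit near the ubiquinone site, had 108.9, 99.4, 192.2 and 187.2 CPM with pyruvate, against 66.8, 77.1, 80.3 and 101.6 CPM in untreated cells. Its log2 fold change was 0.85 (adjusted p = 0.0662, edgeR), and the groups overlapped. UQCRQ and UQCR11, also supernumerary subunits, differed by log2 0.11 and −0.06 (adjusted p = 0.257 and 0.511, edgeR). UQCRH and UQCRB were singled out after their values were seen.

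The UQCRH level could in principle be shared with UQCRHL, a retrocopy elsewhere on chromosome 1. Their coding sequences of 273 bases differ at 4 positions, all within the stretch from base 148 to base 243 that is printed here with the differing bases in capitals, from GENCODE 29 transcripts.
UQCRH: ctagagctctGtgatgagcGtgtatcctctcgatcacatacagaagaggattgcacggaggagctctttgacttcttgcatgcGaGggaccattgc
UQCRHL: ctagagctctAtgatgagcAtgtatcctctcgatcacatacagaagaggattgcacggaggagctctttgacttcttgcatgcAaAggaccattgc
The table gave UQCRHL 28 counts over all 12 libraries, which is 0.0491% of the 57003 of UQCRH. How reads were split between them by the authors' counting is not stated.

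UQCRC1 and UQCRC2, the core proteins of complex III, differed with pyruvate by log2 0.00 and −0.02, with 95% intervals of −0.102 to 0.103 and −0.148 to 0.11. UQCRFS1, the Rieske iron-sulfur protein, differed by log2 −0.13 and CYC1, cytochrome c1, by log2 0.26 (adjusted p = 0.267 and 0.185, edgeR). CYC1 had 324.5 and 323.9 CPM in pyruvate replicates 3 and 4, but 215.8 and 217 CPM in replicates 1 and 2, against 218.9 to 236.7 CPM in untreated cells. The level of CYC1 in pyruvate replicates 1 and 2 thus lay just below all untreated libraries. Over the 9 complex III genes the median log2 fold change was 0.107 with pyruvate, with 6 of 9 above 0. With AKB it was 0.0448, again with 6 of 9 above 0.

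Cytochrome c itself hardly differed with pyruvate. CYCS had 561.1, 512.4, 578.3 and 532.6 CPM with AKB, 609.3, 579.8, 617.7 and 574.5 CPM with pyruvate, and 600.1, 594.9, 620 and 565.8 CPM in untreated cells. The pyruvate and untreated ranges coincided almost entirely (log2 0.00, 95% interval −0.115 to 0.116). With AKB the log2 fold change was −0.12, with an unadjusted p of 0.0371 and an adjusted p of 0.337 (edgeR).

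In complex IV no subunit gene was called in any of the 3 comparisons. COX6B1, a subunit on the face of the enzyme that meets cytochrome c, differed most in size with pyruvate. It had 65.4, 58.4, 194.4 and 181.4 CPM in pyruvate replicates 1 to 4, against 43.3, 47.6, 42.5 and 72 CPM in untreated replicates 1 to 4. Replicates 1 and 2 lay inside the untreated range, and replicates 3 and 4 averaged 3.66-fold the untreated mean. The log2 fold change was 1.28 ± 0.38 SE (adjusted p = 0.0802, edgeR), and 0.27 without those 2 libraries. COX6B1 was named for this after its values were seen.

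COX5B, a zinc-binding subunit, had 92.6, 123.9, 174.4 and 168.9 CPM with pyruvate, against 94.4, 89.9, 92.7 and 88.2 CPM in untreated cells (log2 0.62, adjusted p = 0.0629, edgeR). Its replicate 1 lay inside the untreated range and the other 3 above it. COX5A, another subunit on the matrix side, had 105.6, 103.7, 200 and 176.5 CPM with pyruvate, against 103.1, 98.8, 102.1 and 118.2 CPM in untreated cells (log2 0.47, adjusted p = 0.132, edgeR). For COX5A the 2 groups overlapped through replicates 1 and 2. COX4I1, the largest nuclear-encoded subunit, was spread differently, with 294.8, 377.7, 342.6 and 307.3 CPM with pyruvate against 296.4, 274.9, 265.3 and 276.4 CPM in untreated cells. Its log2 fold change of 0.25 (adjusted p = 0.0924, edgeR) did not shrink without replicates 3 and 4, where it was 0.27 (adjusted p = 0.199).

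COX7B, a small subunit, differed by log2 0.44 with pyruvate (adjusted p = 0.14, edgeR). The 5 other small subunits COX6A1, COX6C, COX7A2, COX7C and COX8A lay between log2 0.02 and 0.15, with adjusted p from 0.231 to 0.932 (edgeR). COX7A2, the form of subunit VIIa made in most tissues, had 101.9, 144.5, 96.7 and 93.7 CPM with pyruvate, against 119.2, 103.9, 106.9 and 101.3 CPM in untreated cells. With AKB it had 120.8, 103, 99.4 and 115.5 CPM. Its relative COX7A2L, which joins complexes III and IV into supercomplexes, had 85.4, 104, 84.8 and 79.4 CPM with pyruvate, against 95.3, 91.6, 90.2 and 83.4 CPM in untreated cells. With AKB it had 88.3, 88.9, 81.9 and 86.8 CPM. Both genes differed by at most log2 0.06 in size with either treatment, and the groups overlapped. The forms COX4I2, COX6A2, COX7A1 and COX8C were not analysed here. Over the 11 subunits the median log2 fold change was 0.147 with pyruvate (10 of 11 above 0) and 0.0243 with AKB (6 of 11 above 0).

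PET100, the assembly factor (ENSG00000229833, chr19:7629737-7631956, plus strand), had 7.88, 10.1, 15.9 and 17.1 CPM in pyruvate replicates 1 to 4. In untreated replicates 1 to 4 it had 5.18, 5.81, 4.93 and 5.85 CPM, all below the lowest pyruvate library. The means were 12.7 ± 4.45 and 5.45 ± 0.459 CPM (SD, n = 4 each). It was 2.34-fold higher with pyruvate (log2 1.23 ± 0.22 SE, adjusted p = 0.0206, edgeR). In AKB libraries it had 6.56, 6.79, 6.21 and 7.96 CPM, also above every untreated library, but the log2 fold change of 0.34 did not pass the test (adjusted p = 0.563, edgeR). Without pyruvate replicates 3 and 4, the fold change with pyruvate was log2 0.72 and the adjusted p 0.0588.

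The PET100 call did not hold when an overlapping gene was counted with it. ENSG00000268400, a protein-coding gene on the same strand, shares 285 exon bases with PET100 in GENCODE 29. It had 5.21, 0, 0.176 and 0 CPM with AKB and 0, 0, 0.101 and 0.14 CPM with pyruvate, against 8.27, 6.18, 6.4 and 0 CPM in untreated cells. It was thus almost absent from every pyruvate library and present in 3 of 4 untreated ones. Summed over both genes, the level was 7.88, 10.1, 16 and 17.2 CPM with pyruvate, against 13.4, 12, 11.3 and 5.85 CPM in untreated cells. The sums overlapped, with a log2 fold change of 0.27 ± 0.30 SE (adjusted p = 0.547, edgeR). With AKB the sum differed by log2 −0.38 (adjusted p = 0.672, edgeR), the opposite sign to PET100 alone. This pooling was added after seeing the data. Reads that fit both genes can be given to either, and how this was done is not stated, so the PET100 difference is uncertain.

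In ATP synthase, ATP5MF, the gene of membrane subunit f (ENSG00000241468, chr7:99448475-99466331, minus strand), had 126.1, 176.3, 240.5 and 234.8 CPM in pyruvate replicates 1 to 4. It had 102, 101.5, 94.2 and 113.2 CPM in untreated replicates 1 to 4, with no overlap. The means were 194.4 ± 54 and 102.7 ± 7.85 CPM (SD, n = 4 each). ATP5MF was 1.89-fold higher with pyruvate (log2 0.92 ± 0.17 SE, adjusted p = 0.0222, edgeR). With AKB it had 106.7, 122.9, 117.4 and 135.2 CPM, overlapping the untreated range (log2 0.23, adjusted p = 0.626, edgeR). Without pyruvate replicates 3 and 4, the fold change with pyruvate was log2 0.56 and the adjusted p 0.0682. ATP5MF shares 177 exon bases with the read-through gene ATP5MF-PTCD1 and 53 with PTCD1 on the same strand. Summed with both, the log2 fold change was 0.73 ± 0.15 SE (adjusted p = 0.0344, edgeR), still past the threshold.

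**Figure D2:**
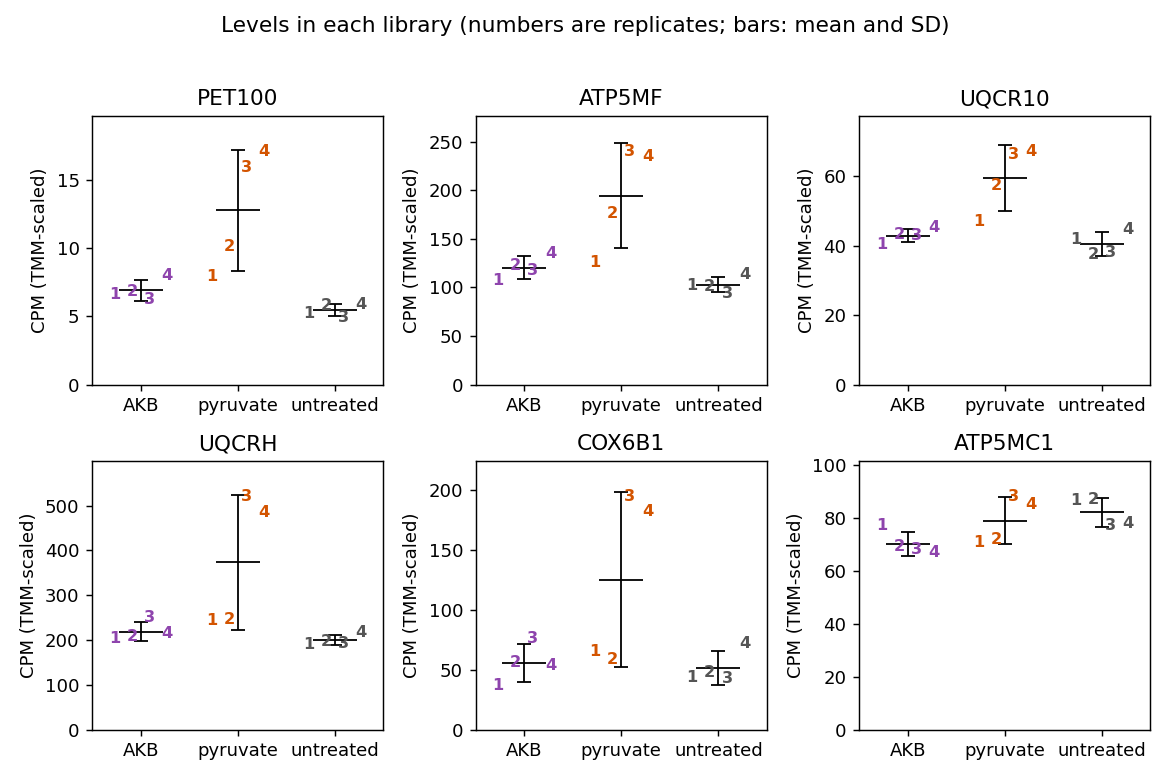
TMM-scaled CPM of 6 genes in each library, with the replicate number as the symbol, the group mean as a wide bar and the SD as the error bar (n = 4 libraries per group). PET100, ATP5MF and UQCR10 in pyruvate replicates 1 and 2 lie above all untreated libraries, COX6B1 in replicates 1 and 2 lies within the untreated range, and ATP5MC1 in AKB libraries lies below all untreated ones, though AKB replicate 1 (76.96) only just.

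The neighbours of subunit f in the membrane did not pass the test. ATP5ME, subunit e, had 30.9, 31.6, 56.1 and 55.4 CPM with pyruvate, against 25.5, 30.1, 27 and 36.4 CPM in untreated cells (log2 0.55, adjusted p = 0.109, edgeR). Only replicates 3 and 4 exceeded the untreated range. ATP5MG, subunit g, differed by log2 0.18 (adjusted p = 0.17, edgeR). ATP5IF1, the inhibitor that stops ATP synthase from running backwards, had 140.3, 150.3, 224.2 and 210.3 CPM with pyruvate, against 139.6, 141.5, 141 and 146.4 CPM in untreated cells. Its log2 fold change was 0.35 (adjusted p = 0.112, edgeR), and 0.03 without replicates 3 and 4.

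The genes of the catalytic head had fold changes at or below 0. ATP5F1A and ATP5F1B, its alpha and beta subunits, differed with pyruvate by log2 −0.19 and −0.05 (adjusted p = 0.181 and 0.49, edgeR). ATP5F1A had 601.6, 637.8, 504 and 482.5 CPM with pyruvate, against 674, 630.6, 652.5 and 584.5 CPM in untreated cells, and replicates 3 and 4 were below the untreated range. In the central stalk, ATP5F1C (gamma), ATP5F1D (delta) and ATP5F1E (epsilon) differed by log2 −0.04, 0.17 and −0.18. In the peripheral stalk, ATP5PB, ATP5PD, ATP5PF and ATP5PO lay between log2 −0.15 and 0.17, with adjusted p from 0.16 to 0.661 (edgeR). ATP5PF shares exon bases with GABPA on the opposite strand, and counting by strand is not stated in the labels. GABPA had 69.9 and 62.9 CPM in pyruvate replicates 3 and 4, against 91.1 to 121 CPM in the other 10 libraries. Over the 16 ATP synthase genes the median log2 fold change was 0.129 with pyruvate (9 of 16 above 0) and −0.034 with AKB (5 of 16 above 0).

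The ring that turns in the membrane is built from subunit c, which 3 genes encode. ATP5MC1, ATP5MC2 and ATP5MC3 give the same mature protein behind different import peptides. The last 90 coding bases, without the stop codon, are shown from GENCODE 29 transcripts. Reads that lie wholly in this stretch can be told apart only by the bases that differ there. The transcripts of ATP5MC1, ATP5MC2 and ATP5MC3 are longer, at 614, 1950 and 5484 bases, so reads from elsewhere in them can also differ. Capitals mark the 25 positions where the 3 genes are not all alike.
ATP5MC1, chromosome 17: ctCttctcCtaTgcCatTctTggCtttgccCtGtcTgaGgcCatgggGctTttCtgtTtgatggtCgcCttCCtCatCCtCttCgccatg
ATP5MC2, chromosome 12: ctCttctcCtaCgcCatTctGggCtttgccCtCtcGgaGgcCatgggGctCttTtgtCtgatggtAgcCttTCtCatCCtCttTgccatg
ATP5MC3, chromosome 2: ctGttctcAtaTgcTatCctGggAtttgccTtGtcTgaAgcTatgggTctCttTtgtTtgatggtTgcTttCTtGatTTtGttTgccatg
ATP5MC1 and ATP5MC2 were identical at 88.9% of these bases, and ATP5MC3 was identical to them at 77.8% and 76.7%.

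All 3 subunit c genes were highest in pyruvate replicate 3. ATP5MC1 had 76.96, 69, 67.9 and 66.9 CPM with AKB, against 86.6, 87.1, 77 and 77.9 CPM in untreated cells. Every AKB library was below every untreated one, though AKB replicate 1 only just. The gene is ENSG00000159199, at chr17:48892765-48895871 on the plus strand. With pyruvate it had 70.6, 71.9, 88.1 and 85.2 CPM. The log2 fold change with AKB was −0.23 ± 0.09 SE (unadjusted p = 0.0223, adjusted p = 0.274, edgeR). ATP5MC2 had 108.9, 125.7, 137.4 and 123.4 CPM with AKB and 128.6, 113, 201.4 and 187.5 CPM with pyruvate, against 107.4, 116.5, 112.3 and 145.1 CPM in untreated cells. ATP5MC3 had 439.3, 404, 437.8 and 415.4 CPM with AKB and 449.6, 422.4, 577.4 and 567.7 CPM with pyruvate, against 471.5, 424.4, 422 and 422.3 CPM in untreated cells. For both, only pyruvate replicates 3 and 4 left the untreated range upwards, and the log2 fold changes with pyruvate of 0.39 and 0.21 did not pass the test (adjusted p = 0.157 and 0.165, edgeR).

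With AKB over untreated cells, the log2 fold changes of the 38 genes ran from −0.23 (ATP5MC1) to 0.34 (PET100), with a median of −0.0131 and 18 of 38 above 0. The median over all genes tested was 0.00609. At an unadjusted p below 0.05 none of the 38 was higher and 3 were lower, namely CYCS, ATP5F1B and ATP5MC1, and neither DESeq2's Wald test nor limma-voom called any. Over all 13598 genes tested, 1097 were higher and 697 lower at that unadjusted threshold. The groups did not overlap for 2 genes that were higher with AKB (COX6C and PET100) and 2 that were lower (COX8A and ATP5MC1). Over all genes tested this was so for 8.74% upwards and 8.41% downwards. Leaving out pyruvate replicates 3 and 4 changes the shared estimate of the spread, and 4.86% of all genes were then called higher and 4.31% lower with AKB. Of the 38, only ATP5MC1 was then called, with a log2 fold change of −0.23 (adjusted p = 0.0357, edgeR). The fibroblast marker COL1A1 was then also called higher with AKB (adjusted p = 0.0332, edgeR), and its part in the AKB result was not tested. With an offset for GC content in edgeR, 5.65% of all genes were called lower with AKB, and so were CYC1, COX8A and ATP5MC1 (adjusted p = 0.0362, 0.027 and 0.0148).

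**Figure D3:**
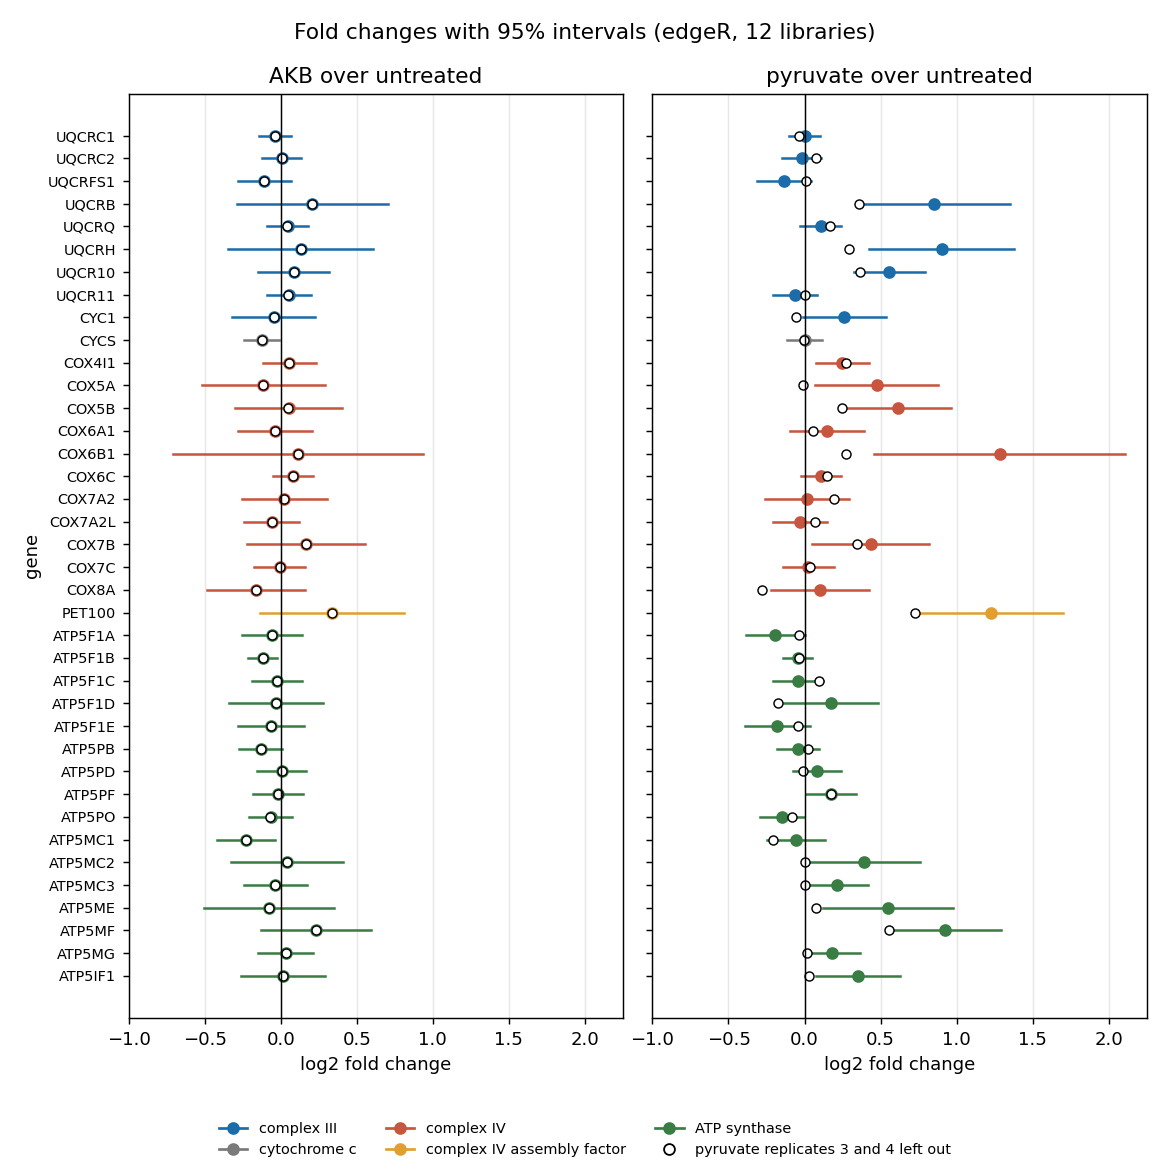
Log2 fold changes of the 38 genes with AKB (left) and pyruvate (right) over untreated cells. Filled points are from the 12 libraries with 95% intervals as lines, and open points leave out pyruvate replicates 3 and 4. With AKB all points lie between −0.23 and 0.34, while with pyruvate COX6B1 (1.28) and PET100 (1.23) lie farthest right and most open points lie nearer 0 than the filled ones.

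The pyruvate comparison had a median of log2 0.129 over the 38 genes, with 27 of 38 above 0, against a median of −0.00819 over all genes tested. At an unadjusted p below 0.05, 16 of the 38 were higher and 1 (ATP5PO) was lower. Over all 13598 genes tested, 2035 were higher and 1892 lower at that threshold. The groups did not overlap for 5 genes, all higher with pyruvate: UQCRH, UQCR10, COX6C, PET100 and ATP5MF. That is 13.2% of the 38, while over all genes tested 4.89% did not overlap upwards and 6% downwards.

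The higher levels with pyruvate were largely those of replicates 3 and 4. The median log2 difference of the 38 genes from the untreated mean was 0.00713 and 0.0885 in pyruvate replicates 1 and 2, and 0.254 and 0.161 in replicates 3 and 4. In the mean of replicates 3 and 4, 13 of the 38 genes were more than 0.5 log2 above the untreated mean, against 2 in the mean of replicates 1 and 2. Over all 13598 genes tested, 2666 (19.6%) were so in replicates 3 and 4, against 473 in replicates 1 and 2. By machine, 4 of 9 complex III genes, 4 of 11 complex IV subunits and 4 of 16 ATP synthase genes were more than 0.5 above in replicates 3 and 4, and PET100 was the remaining one. Both replicates 3 and 4 were above all other 10 libraries for 17 of the 38 genes (44.7%) and below them for 8 (21.1%). Over all genes tested these shares were 23.8% and 28.2%. The lowest were ATP5F1A, ATP5F1E and UQCRFS1, at 0.36, 0.32 and 0.29 log2 below the untreated mean.

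Without replicates 3 and 4, none of the 38 genes was called higher or lower with pyruvate by edgeR, while the shares over all genes tested were 0.151% upwards and 0.56% downwards. Unadjusted p-values below 0.05 were then found for 9 higher and 3 lower members, and for 990 higher and 980 lower of all 13941 genes tested. The median log2 fold change of the 38 was 0.034. Replicates 1 and 2 averaged 1.65-fold the untreated mean for PET100, 1.47-fold for ATP5MF and 1.29-fold for UQCR10, and both libraries were above every untreated one for each gene. For PET100 pooled with its overlapping gene this was not so: replicates 1 and 2 had 7.88 and 10.1 CPM, against 13.4, 12, 11.3 and 5.85 CPM in untreated cells. For COX5A, ATP5MC2, ATP5MC3, ATP5IF1 and ATP5MG, replicates 1 and 2 averaged between 0.992-fold and 1.02-fold, and the difference was seen in replicates 3 and 4 only. COX8A and ATP5F1D changed sides, at 0.825-fold and 0.885-fold in replicates 1 and 2 and 1.32-fold and 1.37-fold in replicates 3 and 4.

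**Figure D4:**
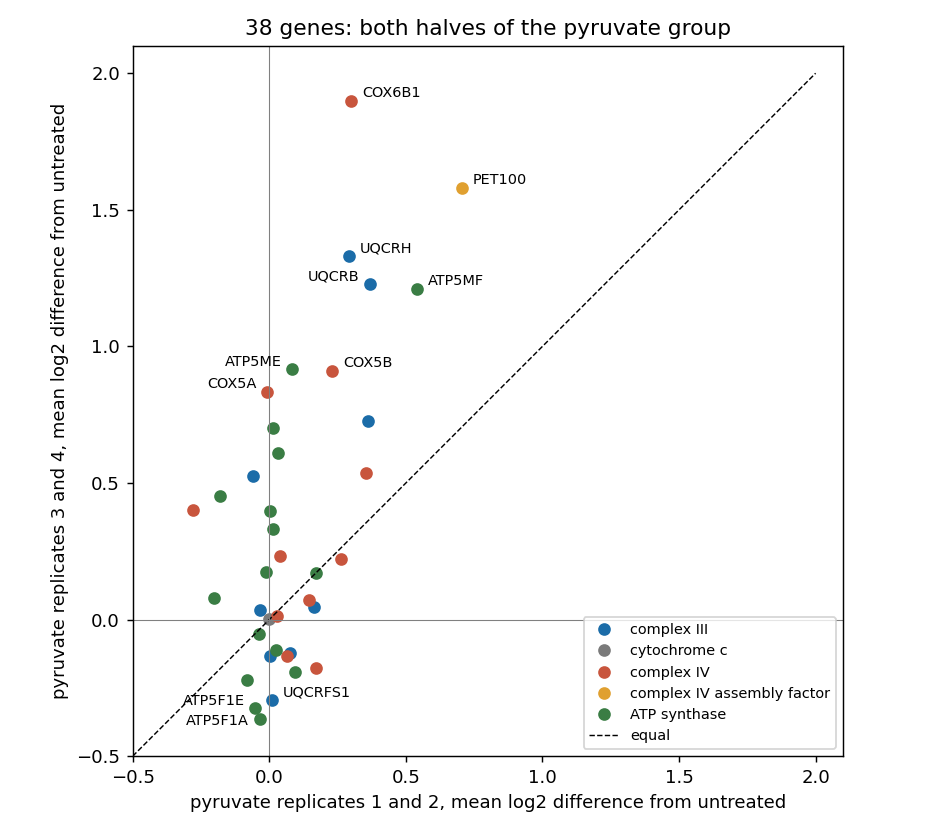
Mean log2 difference of each of the 38 genes from the untreated mean in pyruvate replicates 3 and 4 (vertical) and in replicates 1 and 2 (horizontal), coloured by complex, with the dashed line where both are equal. COX6B1 lies at 1.9 against 0.301, ATP5MF at 1.21 against 0.54, and ATP5F1A, ATP5F1E and UQCRFS1 lie lowest.

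Across the 38 genes the difference in replicates 3 and 4 went weakly with transcript GC content (Spearman's rho 0.349, Pearson's r 0.281) and with transcript length (rho −0.449, r −0.257). Over 13047 genes with a value the rho with GC content was 0.745. These are descriptions across genes of the same libraries, not tests. By machine the rho with GC content was −0.0833 for complex III (n = 9), 0.473 for complex IV (n = 11) and 0.497 for ATP synthase (n = 16). The part of GC content in the pyruvate values was not tested beyond the GC offset. With the GC offset, 4.84% of all genes were called higher with pyruvate, and 7 of the 38 were: UQCRB, UQCRH, UQCR10, COX5B, COX6C, PET100 and ATP5MF. Some of the genes also varied together elsewhere, as did genes outside the 38. UQCRB, COX6B1, COX7B and ATP5ME were highest in replicate 4 among untreated libraries and highest in replicate 3 among AKB libraries. COX6B1, for example, had 72 CPM in untreated replicate 4 against 42.5 to 47.6 CPM in the other untreated libraries, and 76.2 CPM in AKB replicate 3 against 36.8 to 55.6 CPM in the other AKB libraries. UQCRH and COX5A, and outside the 38 GATA1 and CHCHD10, were highest in the same libraries. Untreated replicate 4 and AKB replicate 3 also had the highest GC slope of their groups (0.00108 and 0.0172). How many of all genes peaked there was not counted.

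At equal dose and time, the same 3 genes were called between AKB and pyruvate. The log2 fold change of AKB over pyruvate was −0.47 ± 0.11 SE for UQCR10, −0.89 ± 0.22 for PET100 and −0.69 ± 0.17 for ATP5MF (adjusted p = 0.0408, 0.0476 and 0.0479, edgeR). For PET100 and ATP5MF this call did not hold with the overlapping same-strand genes added, where log2 was −0.64 and −0.55 (adjusted p = 0.215 and 0.0615, edgeR). None of the 3 was called when any 1 untreated library, any 1 AKB library, or pyruvate replicate 3 or 4 was left out, or with no filter on low counts. None of the 38 was higher with AKB. Over all genes tested 1.94% were called higher and 1.19% lower with AKB than with pyruvate. For UQCR10 the groups did not overlap, the sole such gene of the 38, while this was so downwards for 4.54% and upwards for 7.08% of all genes. Both treatments are set against the same untreated libraries, so this direct comparison, and not the 2 others side by side, tests the difference. Without pyruvate replicates 3 and 4 none of the 38 was called by edgeR, while 2.52% of all genes were called higher and 1.84% lower with AKB. The fold changes were then log2 −0.28 for UQCR10, −0.39 for PET100 and −0.33 for ATP5MF. Unadjusted p-values below 0.05 were then found for 9 lower members and no higher one, and for 1414 lower and 1576 higher of all 13941 genes tested. With the GC offset 9.1% of all genes were called lower with AKB than with pyruvate, and so were 11 of the 38.

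Few partner genes were called in the fit of all 12 libraries without the GC offset. Of 10 further complex III genes tested, only UQCC3, which helps assemble cytochrome b, rose with pyruvate (log2 0.63, adjusted p = 0.049, edgeR). Without replicates 3 and 4 UQCC3 was at log2 0.32 (adjusted p = 0.215, edgeR). Of 28 complex IV assembly genes, none was called with either treatment. Those with the smallest adjusted p with pyruvate were COX15, a haem A synthesis enzyme, at log2 −0.33 (adjusted p = 0.0553, edgeR) and TACO1, a translational activator of MT-CO1, at log2 0.52 (adjusted p = 0.082). Of 9 further ATP synthase genes and of the other complex IV subunits COX6B2 and NDUFA4, none was called either. Of 11 tested regulators of respiratory chain genes, none was called, and CHCHD10, which encodes a small mitochondrial intermembrane space protein, differed most with pyruvate, by log2 1.21 (adjusted p = 0.087, edgeR) and by 0.05 without replicates 3 and 4. Leaving those 2 libraries out brought calls of AKB against untreated cells, all lower: LRPPRC and ATPAF1, and the regulators GABPA, TFB2M and PPRC1. Their log2 fold changes ran from −0.28 to −0.18, in the fit that called 4.31% of all genes lower. ATP5MK, a further ATP synthase gene, was then called lower with AKB than with pyruvate (log2 −0.24, adjusted p = 0.0207, edgeR). In that comparison 1.84% of all genes were called lower. With the GC offset, 3 complex IV assembly genes were called higher and 3 lower with pyruvate, and 1 lower with AKB. Of the regulators, 1 was then called higher and 2 lower with pyruvate, and 2 lower with AKB. That fit called 658 of all 13598 genes higher and 637 lower with pyruvate, and 514 higher and 768 lower with AKB. The 6 partner subunits encoded by mitochondrial DNA (MT-CYB, MT-CO1, MT-CO2, MT-CO3, MT-ATP6 and MT-ATP8) were not called. Their median log2 fold change was 0.16 with AKB and 0.146 with pyruvate, and they took 2.08% to 3.25% of counts in AKB libraries, 2.07% to 2.95% in pyruvate libraries and 1.99% to 2.98% in untreated ones.

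The authors' deposited table of untreated over pyruvate gave an adjusted p below 0.05 to 15 of the 38 genes, against 12% of the 12261 genes with a value. Of these 15, 14 were negative, meaning higher with pyruvate, and UQCRC1 was positive. They included UQCR10 (log2 −0.57), PET100 (−1.16), ATP5MF (−0.99) and COX6B1 (−1.35) in the authors' deposited table. They also included CYCS at −0.31 and UQCRC2 at −0.16 in that authors' deposited table, genes whose CPM in the deposited counts gave log2 0.00 and −0.02 with pyruvate over untreated. UQCRC1 was at 0.19 in that authors' deposited table, while its CPM in the deposited counts gave log2 0.00 with pyruvate over untreated. In the authors' deposited table of untreated over AKB none of the 38 passed, against 4.9% of 12945 genes. In the authors' deposited table of AKB over pyruvate 12 passed, all negative, against 10% of 12604 genes.

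Several of the 38 genes share sequence with others, which bears on how firmly their counts are known. In GENCODE 29, 20 of the 38 share exon bases with another annotated gene, and for 14 of these that gene is in the table. For 8 of the 38 the table also lists processed copies, 13 in all, with totals of 0.0088% to 3.35% of the member's own. The highest share was that of the copy of UQCRFS1.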

How the data were processed

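Poly(A) RNA was sequenced in 12 libraries, per the labels' protocols. The deposited estimated counts per gene were made by the authors with Salmon 1.2.1, per the submitters' processing notes, which also name DESeq2 1.26.0 and R 3.6.3. Their genome build, annotation and settings are not stated there. The authors' deposited comparison tables give log2 fold changes and adjusted p-values, per the file headers, with the first-named group over the second.

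Counts were rounded and fitted in R 4.3.3 with edgeR 4.0.16: filterByExpr by group (minimum count 10), TMM scaling, quasi-likelihood tests on all 12 libraries with 1 term per group, and Benjamini-Hochberg adjustment over 13598 genes. Log2 deviations used a prior count of 2. Alternatives used DESeq2 1.42.0 and limma 3.58.1. Symbols matched 90.3% of identifiers. GC content (95% of identifiers) and length came from 1 representative GENCODE 29 transcript per gene on GRCh38. Overlaps came from the exons of all GENCODE 29 transcripts of both genes, and promoters from RefSeq. The pipeline was tested on simulated counts. Replicate libraries were not copies of each other. The members and gene lists were chosen with earlier results of these data known. Values in every library are given for genes called in any comparison, for ATP5MC1 to ATP5MC3, COX7A2 and COX7A2L, and for further members singled out after their values were seen. The replicate numbers were treated as names.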

Additional observations from a re-analysis of the deposited data

Results flagged for a closer look

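In each group of 4 libraries the gap between the most extreme library and the nearest other was set against the group's range, for 38 genes in 3 groups, 114 in all. In 9 cases 1 library stood apart. Chance alone flags about 1 in 20 such groups. With AKB, CYC1 had 227.8 CPM in replicate 2 against 214.6 to 215.6 CPM in the others, and ATP5F1A and ATP5F1B had 677.7 and 1534 CPM in replicate 1 against 583 to 598 CPM and 1402 to 1417 CPM. With pyruvate, UQCRQ had 169.8 CPM in replicate 2 against 144.2 to 147.6 CPM, COX7A2 had 144.5 CPM in replicate 2 against 93.7 to 101.9 CPM, COX7B had 105 CPM in replicate 2 against 129.3 to 132.5 CPM, and COX6A1 had 162.6 CPM in replicate 1 against 218.8 to 225.5 CPM. In untreated cells, ATP5PD and ATP5MC3 had 98.8 and 471.5 CPM in replicate 1 against 88.9 to 89.7 CPM and 422 to 424.4 CPM.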

How the results depend on the processing

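With pyruvate against untreated cells, 3 of the 38 genes were called higher. The count was 9 with DESeq2's Wald test (1096 of all genes, against 139 in the fit reported), 7 with the GC offset (658), 5 with the replicate block (306), and 0 with the 8 libraries of the comparison alone or without pyruvate replicates 3 and 4. Leaving out each library in turn gave 0 to 13 called higher and 0 to 3 called lower. It was 0 without pyruvate replicate 3 or 4 or any of untreated replicates 1 to 3, and 13 without pyruvate replicate 1 or 2 (1407 and 1931 of all genes). The 3 called lower (ATP5F1A, ATP5F1E and ATP5PO) appeared without pyruvate replicate 2. With AKB against untreated cells, 0 were called lower, and 1 with the 8 libraries alone or without pyruvate replicates 3 and 4, and 3 with the GC offset. No single library left out gave a call of AKB against untreated cells. For AKB against pyruvate, 3 were called lower, and 11 with the GC offset (1237 of all genes, against 162), 9 with DESeq2's Wald test (882), 1 with library size alone, limma-voom or overlapping same-strand genes added, 0 with no filter on low counts, the 8 libraries alone or without pyruvate replicates 3 and 4, and 0 to 13 with each library left out. The cause of these shifts was not tested. The adjusted p with pyruvate ran over the 23 alternatives from 0.000167 to 0.143 for UQCR10, 1.73e-05 to 0.547 for PET100 and 1.48e-05 to 0.115 for ATP5MF, and all 3 stayed above 0 in log2 fold change. Same-numbered libraries deviated with correlations of −0.0996 to 0.202, and 5 of 12 correlated best with their own number. Such correlations cannot settle whether the numbers pair the samples, which the labels do not state. With the replicate block AKB against pyruvate gave 2.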
